A study of Homo sapiens with 4 samples.

Results

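The 10 genes described here encode alpha and beta tubulin isotypes, measured in Cal51 human breast cancer cells and in Cal51R, a doxorubicin-resistant line derived from them. They were chosen by gene symbol and are 10 of the 17215 genes in the deposited table. The alpha isotypes are TUBA1A, TUBA1B, TUBA1C and TUBA4A, and the beta isotypes are TUBB, TUBB2A, TUBB2B, TUBB3, TUBB4B and TUBB6.

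Polyadenylated RNA was sequenced from 2 libraries of Cal51, a line from a triple-negative breast tumour, and 2 libraries of Cal51R. Cal51 had no drug treatment or genetic change in the labels, and how the resistance of Cal51R was obtained, whether it is 1 clone, and whether drug was present when RNA was taken are not stated in the sources used here. The study was made to look for deubiquitinating enzymes, which take ubiquitin off proteins, with a part in resistance. The labels do not say whether replicate libraries stand for separate cultures, and p-values therefore measure library-to-library spread that may be technical only.

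Alpha and beta tubulin form a heterodimer that polymerises into microtubules, the filaments of the mitotic spindle and of intracellular transport. Vertebrates have several genes for each subunit, and their proteins differ mainly in an acidic tail at the C terminus, where enzymes add and remove glutamate and tyrosine residues and where many motor and binding proteins dock. Dividing cells rely largely on TUBA1B, TUBA1C, TUBB and TUBB4B, neurons are rich in TUBA1A, TUBB2A, TUBB2B, TUBB3 and TUBB4A, and beta tubulin is the target of taxanes and vinca alkaloids, whereas doxorubicin acts on DNA and topoisomerase II.

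The stretch that encodes the tail of each beta isotype is shown first, because it is where most of these isotypes can be told apart. Near-identical stretches also limit how reads are assigned to a gene. The lines below give the last 60 coding bases before the stop codon, 5′ to 3′, from the GENCODE 29 transcripts (GRCh38), with in-frame GAA and GAG glutamate codons in capitals.
TUBB: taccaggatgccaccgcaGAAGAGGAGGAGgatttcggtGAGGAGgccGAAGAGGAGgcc
TUBB2A: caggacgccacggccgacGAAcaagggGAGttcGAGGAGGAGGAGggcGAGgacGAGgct
TUBB2B: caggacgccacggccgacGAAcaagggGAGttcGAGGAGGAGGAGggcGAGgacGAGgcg
TUBB3: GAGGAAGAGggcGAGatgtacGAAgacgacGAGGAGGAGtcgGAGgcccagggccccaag
TUBB4B: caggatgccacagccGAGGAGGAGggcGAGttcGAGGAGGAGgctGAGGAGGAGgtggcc
TUBB6: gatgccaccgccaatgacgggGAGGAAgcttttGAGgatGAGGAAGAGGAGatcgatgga

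Glutamate codons made up 7 (TUBB6) to 10 (TUBB4B) of the 20 codons in these stretches. TUBB2A and TUBB2B differed at 1 of the 60 bases, in the last codon (gct and gcg). Both codons encode alanine, so this stretch encodes the same residues in the 2 genes. Over the whole coding sequence, identity was 97.2% between TUBA1A and TUBA1B, 95.9% between TUBA1A and TUBA1C, 96.8% between TUBA1B and TUBA1C and 98.2% between TUBB2A and TUBB2B. TUBA4A was 84.4% to 85.7% identical to the other alpha members.

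The 4 libraries held 17852379 to 21636996 reads, of which 3 reads correspond to 0.139 to 0.175 CPM (read counts scaled to a fixed library size, after trimmed-mean scaling of library sizes). Replicates correlated at r = 0.994 within each line, and libraries of different lines at 0.869 to 0.875, across genes. With edgeR's quasi-likelihood test and Benjamini-Hochberg adjustment over 13674 genes, 70.8% of all genes passed an adjusted p of 0.05, 35.3% as higher and 35.5% as lower in Cal51R. The even split depends on the scaling: 49.9% of calls were higher as reported, 64.7% when libraries were scaled by their totals, and 63.6% to 67% in tests of deposited FPKM or TPM. The median log2 fold change of all genes was 0.02 as reported and 0.16 to 0.22 in those fits. Summed markers of epithelial cells were 12600 to 14300 CPM in Cal51 and 5820 to 6960 in Cal51R, those of mesenchymal cells 773 and 1720 to 1780 CPM, those of fibroblasts 1620 to 1760 and 395 to 406 CPM, and those of endothelium 53.6 to 57.1 and 139 to 146 CPM. KRT8 and KRT18 carried the epithelial sum and fell with EPCAM, but KRT19 (3.43 to 80.6 CPM), KRT7 (1.34 to 5.29) and CDH1 (1.11 to 2.34) rose. FN1 (243 to 1381 CPM) carried the mesenchymal sum and rose with ZEB1 (27.2 to 32.4), but VIM (499.8 to 335) and CDH2 (2.96 to 0.368) fell. The 2 measured receptors of the triple-negative definition summed to 148 to 173 CPM, nearly all of it ERBB2, and blood cell markers to under 4 CPM. The part of these differences in the tubulin results was not tested.

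The 2 lines differed in most tubulin isotypes, as they did in most genes tested. TUBA1A and TUBB2B rose, TUBA1B, TUBA1C, TUBA4A, TUBB, TUBB4B and TUBB6 fell, and TUBB2A and TUBB3 did not pass the test. All 10 genes passed the filter on low counts, and 8 of 10 were called, beside 70.8% of all genes tested. The 6 that fell were the same number without any 1 library, whereas the number that rose was 1 without Cal51 replicate 1 or Cal51R replicate 1 and 4 without Cal51R replicate 2. Those that fell are 60% of the members, beside 35.5% of all genes, and the 2 that rose are 20%, beside 35.3%. The median log2 fold change of the 10 was −0.58, against 0.02 for all genes, whose interquartile range was −0.45 to 0.55. In CPM the lines did not overlap for 8 of 10 members, beside 85.0% of all genes, with Cal51R above for 2 (43.1% of all genes) and below for 6 (42.0%). Past an adjusted p of 0.05 and 2-fold stood TUBA1A among those higher (13.7% of all genes) and TUBA4A and TUBB6 among those lower (9.88%). The libraries were of bulk RNA, in which a change in the share of cells that express an isotype and a change in its RNA per cell cannot be told apart.

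**Figure D1:**
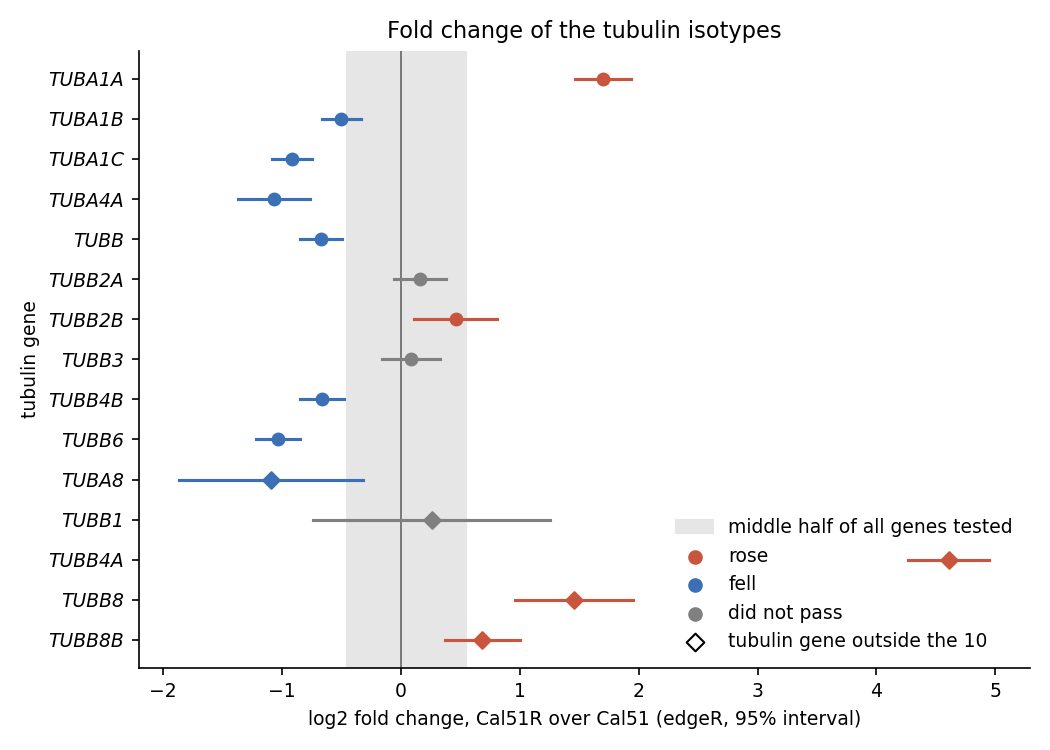
The log2 fold change of each isotype, Cal51R over Cal51, with its 95% interval from edgeR's fit (horizontal axis), over the interquartile range of all genes tested (grey band, −0.45 to 0.55). Among the 10, TUBA1A, at 1.70, lies apart from the other 9, which run from −1.07 (TUBA4A) to 0.46 (TUBB2B). Diamonds mark the 5 tested tubulin genes outside the 10, of which TUBB4A, at 4.61, lies above TUBA1A and TUBB8, at 1.46, near it.

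Levels between genes are compared in TPM, the share of transcripts after division by gene length. In Cal51 the TPM of TUBB was 2081 ± 17.0 (SD, n = 2, as for all means below), followed by TUBA1B at 1782 ± 24.2, TUBB4B at 858 ± 34.5 and TUBA1C at 621 ± 3.16. These 4 isotypes of dividing cells stood well above TUBB6 at 188 ± 10.6, TUBB3 at 52.8 ± 0.714 and TUBB2A at 39.5 ± 1.33 TPM. TUBA4A at 15.2 ± 1.14, TUBA1A at 11.3 ± 0.191 and TUBB2B at 5.61 ± 0.0849 TPM were the lowest of the 10. No neighbours in that order overlapped between libraries.

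In Cal51R the same 4 isotypes led, but the order below them differed. TUBB had 1550.3 ± 67.9 TPM and TUBA1B 1491 ± 21.5, and their libraries overlapped, so that these neighbours did not differ beyond their spread. TUBB4B followed at 640.3 ± 42.7, TUBA1C at 389.5 ± 11.5, TUBB6 at 113 ± 8.52, TUBB3 at 66.1 ± 10.7, TUBB2A at 52.3 ± 2.99 and TUBA1A at 45.9 ± 0.424 TPM. TUBA1A thus moved above TUBA4A, which was lowest at 8.52 ± 0.0919 TPM, just under TUBB2B at 9.13 ± 0.424. No other neighbours overlapped. Among all genes of a library TUBB ranked 40 to 49 by TPM in Cal51 and 73 to 76 in Cal51R, and TUBA1A 8548 to 8796 and 4283 to 4506.

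**Figure D2:**
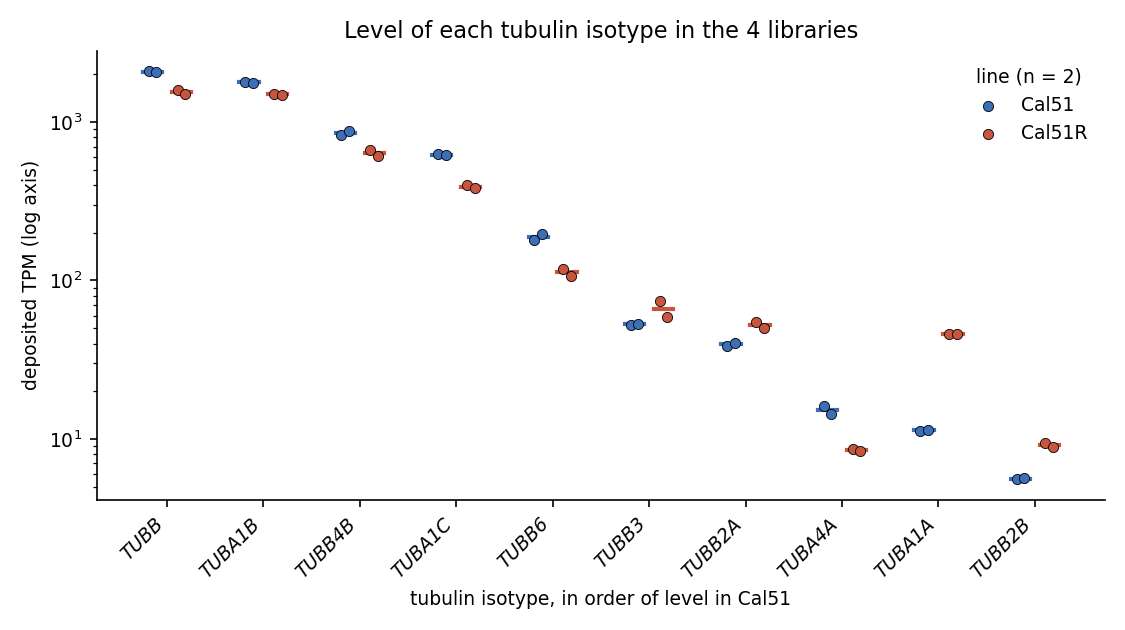
The TPM of each isotype in each of the 4 libraries, on a log axis. The 4 abundant isotypes (TUBB, TUBA1B, TUBB4B, TUBA1C) lie lower in Cal51R than in Cal51, and TUBA1A lies higher.

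Among the 4 alpha isotypes 1 rose and 3 fell (100% called, beside 70.8% of all genes), with a median log2 fold change of −0.71. TUBA1A, the alpha isotype of developing neurons, in which mutations cause brain malformations, was counted at 186 and 169 reads in the Cal51 libraries and at 609 and 633 in those of Cal51R. In CPM these were 9.16 and 9.83 against 32.3 and 29.4. The lines did not overlap, and the Cal51R libraries were the high ones. TUBA1A rose by 1.70 ± 0.11 (log2 fold change ± SE), or 3.25-fold, with an adjusted p of 1.12e-09 by edgeR's quasi-likelihood test.

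TUBA1B, the most abundant alpha isotype in both lines, had 1328 and 1373 CPM in Cal51 and 998 and 911 in Cal51R, with no overlap. It fell by 0.50 ± 0.08 on the log2 scale (1.41-fold lower, edgeR adjusted p = 2.42e-05). TUBA1C, its close relative in dividing cells, had 538 and 562 CPM in Cal51 and 308 and 275 in Cal51R. Both Cal51R libraries were below both Cal51 libraries, and TUBA1C fell by 0.92 ± 0.08 (log2; 1.89-fold lower, edgeR adjusted p = 2.68e-08).

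TUBA4A, an alpha isotype abundant in brain and platelets, was counted at 241 and 189 reads in Cal51 but at 102 and 119 in Cal51R, which is 11.9 and 11.0 against 5.41 and 5.52 CPM. The Cal51R libraries were the low ones without overlap. TUBA4A fell by 1.07 ± 0.14 (log2; 2.09-fold lower, edgeR adjusted p = 5.45e-06), the largest fitted fall of the 10. Its span (GRCh38.p14, chr2:219249710-219254740) overlaps those of STK16 and TUBA4B, and with strand not given for the counts, reads of overlapping genes cannot be told apart. STK16, a kinase gene, rose by 0.50 ± 0.11 (log2, edgeR adjusted p = 0.000621), and TUBA4B had 0 to 3 reads in each library.

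The TUBA1 genes share sequence, and reads from a shared stretch can only be divided by estimate. Of the 100-base windows in the transcripts of each gene, 18.6% of TUBA1A's, 32.1% of TUBA1B's and 11.5% of TUBA1C's also occurred in another member. Beside the 609 and 633 reads of TUBA1A in Cal51R, TUBA1B had 18821 and 19640, and the effect of dividing shared reads on the rise of TUBA1A was not tested read by read. Summed before the fit, the 3 genes reached 38079 and 33417 reads in Cal51 but 25247 and 26192 in Cal51R. The sum fell by 0.58 ± 0.08 (log2, edgeR adjusted p = 6.03e-06).

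Among the beta isotypes 1 rose, 3 fell and 2 did not pass (66.7% called, beside 70.8% of all genes), with a median log2 fold change of −0.29. TUBB, also called class I beta tubulin and the main beta isotype of most dividing cells, had 2369.9 and 2461 CPM in Cal51 and 1622 and 1416 in Cal51R. The lines did not overlap and Cal51R was the lower. TUBB fell by 0.67 ± 0.08 (log2; 1.59-fold lower, edgeR adjusted p = 2.19e-06).

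TUBB4B, the widely expressed class IVb isotype that also serves cilia, had 589.9 and 658 CPM in Cal51 and 426 and 361 in Cal51R, again with both Cal51R libraries below. TUBB4B fell by 0.66 ± 0.09 (log2, 1.59-fold lower, edgeR adjusted p = 4.45e-06). Its span overlaps that of CIMIP2A, and with strand not given for the counts, reads of overlapping genes cannot be told apart. TUBB6, the class V isotype, had 152 and 169.5 CPM in Cal51 and 85.1 and 72.5 in Cal51R. TUBB6 fell by 1.03 ± 0.09 (log2; 2.04-fold lower, edgeR adjusted p = 2.57e-08), and its libraries did not overlap. Its span (chr18:12307669-12329826) overlaps that of AFG3L2, a mitochondrial protease gene that fell by 0.91 ± 0.07 (log2, edgeR adjusted p = 9.45e-09). AFG3L2 went from a mean of 202 CPM in Cal51 to 107 in Cal51R. Reads of this overlap cannot be told apart either, and their part in the fall of TUBB6 was not tested.

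TUBB2B, a neuronal isotype, was counted at 99 and 90 reads in Cal51 and at 140 in each Cal51R library, or 4.87 and 5.24 against 7.42 and 6.50 CPM. The lines did not overlap. TUBB2B rose by 0.46 ± 0.17 (log2; 1.38-fold, edgeR adjusted p = 0.0209), the smallest called change of the 10. That call was lost without Cal51 replicate 1 (adjusted p = 0.124), without Cal51R replicate 1 (0.106) and with DESeq2 (0.189).

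TUBB2A, encoded beside TUBB2B, had 28.3 and 31.4 CPM in Cal51 and 35.8 and 30.8 in Cal51R. The second Cal51R library lay below the second Cal51 library, so the lines overlapped. The log2 fold change was 0.16 ± 0.10 (95% interval −0.06 to 0.38, edgeR adjusted p = 0.172), and it was 0.26 (0.0175) without Cal51R replicate 2. TUBB2A and TUBB2B shared 54.4% and 42.4% of their 100-base windows with another member. Summed before the fit, the pair reached 674 and 629 reads in Cal51 against 816 and 804 in Cal51R, with a log2 fold change of 0.21 ± 0.10 (edgeR adjusted p = 0.0708), so that the rise called for TUBB2B alone was not called for the pair.

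TUBB3, class III beta tubulin, is a marker of neurons and has been much studied in tumours treated with taxanes. It had 40.8 and 43.9 CPM in Cal51 and 51.5 and 38.4 in Cal51R. The Cal51R libraries held both the highest and the lowest of the 4 values. The log2 fold change was 0.08 ± 0.12 (95% interval −0.16 to 0.33, edgeR adjusted p = 0.531); it was −0.14 (0.178) without Cal51R replicate 1 and 0.28 (0.00611) without Cal51R replicate 2. Of its 100-base windows 89.0% also occur in the annotated readthrough transcript that joins it to MC1R, and the readthrough was not analysed here. MC1R, the melanocortin receptor gene next to it, had a log2 fold change of −0.09 ± 0.17 (edgeR adjusted p = 0.656).

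Of the neuronal isotypes among the 10, TUBA1A and TUBB2B rose, and TUBB2A and TUBB3 did not pass. Their log2 fold changes were 1.70, 0.46, 0.16 and 0.08 in that order. All 4 were called higher with library totals and in the limma fits, and only TUBA1A with DESeq2. TUBB3 turned to −0.14 without Cal51R replicate 1. TUBB4A, a neuronal isotype outside the 10, rose by 4.61 ± 0.16 (log2). Summed CPM of 9 other neuronal markers was 2.76 to 2.91 in Cal51 and 5.83 to 6.77 in Cal51R, and 7 of the 9 were under 1 CPM in every library. Their part in the results for these isotypes was not tested.

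TPM also allows the isotypes of a class to be added up. The 4 alpha members summed to 2449.7 and 2409.7 TPM in Cal51 and 1959 and 1912 in Cal51R. The 6 beta members summed to 3204 and 3247 TPM in Cal51 and 2525 and 2337 in Cal51R. Both pools were lower in both Cal51R libraries, the alpha pool by 20.3% and the beta pool by 24.6%. With 2 libraries against 2 an exact permutation test cannot go below a two-sided p of 0.33, so these sums are given without a call. Together the members took 0.565% and 0.566% of all TPM in Cal51 and 0.448% and 0.425% in Cal51R. The ratio of the alpha to the beta pool was 0.753 ± 0.0158 in Cal51 and 0.797 ± 0.0299 in Cal51R. On the CPM scale, which follows the trimmed-mean scaling and takes no account of length, the pools were 33.2% and 36.6% lower.

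Within the alpha pool the mix shifted from TUBA1C towards TUBA1B and TUBA1A. The share of summed alpha TPM was 25.6% ± 0.168 for TUBA1C in Cal51 and 20.1% ± 0.246 in Cal51R. For TUBA1B it was 73.3% ± 0.141 and 77.1% ± 0.224, so this gene made up more of a smaller pool although its own RNA fell. TUBA1A supplied 0.465% ± 0.0133 and 2.37% ± 0.0193, and TUBA4A 0.627% ± 0.0396 and 0.440% ± 0.00289. The libraries of the 2 lines did not overlap in any of these 4 shares.

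Within the beta pool the shares of the leading pair were close in both lines. TUBB made up 64.5% ± 1.13 in Cal51 and 63.8% ± 0.703 in Cal51R, and TUBB4B 26.6% ± 0.822 and 26.3% ± 0.314, with overlapping libraries for each. The minor isotypes moved apart from them. TUBB6 supplied 5.84% ± 0.273 and 4.64% ± 0.096, TUBB3 1.64% ± 0.0068 and 2.71% ± 0.291, TUBB2A 1.22% ± 0.0297 and 2.15% ± 0.00516, and TUBB2B 0.174% ± 0.001 and 0.376% ± 0.00314. These 4 shares did not overlap, TUBB6 being lower and the 3 neuronal isotypes higher in Cal51R. TUBB3 and TUBB2A thus held a larger share of the TPM pool, although they did not pass edgeR's test on TMM-scaled counts. In limma's test of log2(TPM + 1) both passed (adjusted p = 0.00838 and 0.00082), so that their calls depend on the scale.

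**Figure D3:**
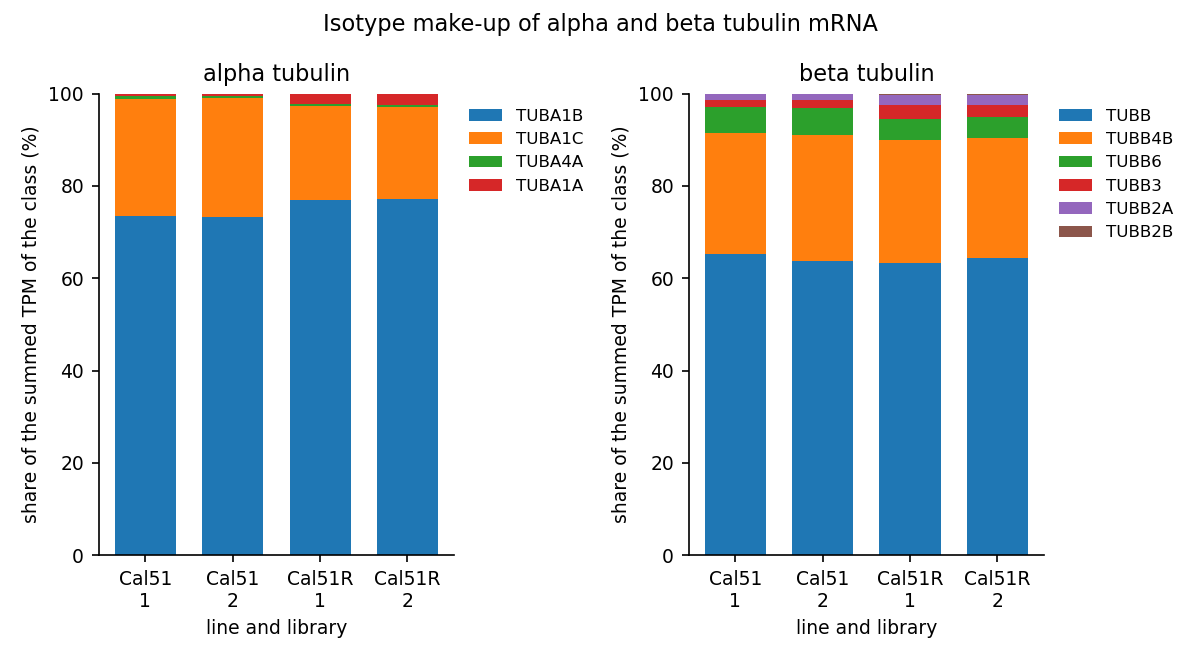
Share of the summed TPM of the alpha members (left) and beta members (right) in each library, in percent. TUBA1C narrows from 25.6% to 20.1% of the alpha pool and TUBA1B widens from 73.3% to 77.1%, while TUBB stays near 64% of the beta pool.

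The other alpha and beta tubulin genes had low levels in Cal51, and 3 of the 5 that could be tested rose, beside 35.3% of all genes. TUBB4A, a beta isotype of neurons and oligodendrocytes in which mutations cause a leukodystrophy, was counted at 28 and 29 reads in Cal51 against 756 and 743 in Cal51R, or 1.38 and 1.69 against 40.1 and 34.5 CPM. It rose by 4.61 ± 0.16 (log2; 24.4-fold, edgeR adjusted p = 3.16e-13). Its mean TPM went from 1.42, under every one of the 10 members, to 40.7, between TUBA1A and TUBB2B. With all beta genes of the file included, the beta pool was 23.0% lower in Cal51R in place of 24.6%. None of TUBB4A's 100-base windows occurred in another gene.

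TUBB8, whose mutations arrest human oocytes, had 3.00 and 1.57 CPM in Cal51 and 6.31 and 6.50 in Cal51R and rose by 1.46 ± 0.24 (log2, edgeR adjusted p = 3.9e-05). Its relative TUBB8B rose by 0.68 ± 0.15 (edgeR adjusted p = 0.000613), and reads of this pair may be hard to divide. TUBA8 fell by 1.09 ± 0.37 (edgeR adjusted p = 0.0141) from 1.72 to 0.792 CPM, a call lost with DESeq2 (0.119) and without Cal51 replicate 2 (0.283). TUBB1, the platelet isotype, had 8 to 11 reads in each library and did not pass (0.26 ± 0.47, edgeR adjusted p = 0.633). TUBA3C, TUBA3D, TUBA3E, TUBA4B and TUBAL3 had 0 to 10 reads in each library and were not tested.

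TUBA1A, TUBA1B and TUBA1C lie in 1 cluster on chromosome 12 (GRCh38.p14, chr12:49184795-49189080, chr12:49127782-49131395 and chr12:49227926-49274600), yet TUBA1A rose and its 2 neighbours fell. Around TUBA1B, 14 other genes within 250 kb were tested, of which 8 rose, 2 fell and 4 did not pass, with a median log2 fold change of 0.48. Its nearest, LMBR1L, rose by 0.72 ± 0.13, and PRPH, the peripherin gene beside TUBA1C, rose by 1.79 ± 0.59 from 0.157 to 0.567 CPM (edgeR adjusted p = 8.54e-05 and 0.0127). Around TUBB (chr6:30720352-30725422), 2 of 17 neighbours rose and 10 fell, with a median of −0.27, and the nearest, FLOT1, rose by 0.71 ± 0.08 (edgeR adjusted p = 1.14e-06). Around TUBB4B (chr9:137241287-137243707), 3 of 24 rose and 11 fell, with a median of −0.16. Over all genes tested 35.3% rose and 35.5% fell. TUBA4A fell, but 7 of its 14 neighbours rose and 1 fell. For TUBB6, which also fell, 0 of 3 neighbours rose and 1 fell. Beside TUBB3, which did not pass, 4 of 12 rose and 4 fell. Copy number was not analysed here.

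Because these adjacent genes moved in opposite directions, the 250 bases before the RefSeq start of TUBA1A and of TUBA1B are shown, from the RefSeq promoter table (GRCh38.p14, both on the minus strand, chr12:49189081-49189330 and chr12:49131396-49131645). They are written 5′ to 3′ along the gene's strand, with capitals at CCAAT and GGGCGG matches on either strand.
TUBA1A: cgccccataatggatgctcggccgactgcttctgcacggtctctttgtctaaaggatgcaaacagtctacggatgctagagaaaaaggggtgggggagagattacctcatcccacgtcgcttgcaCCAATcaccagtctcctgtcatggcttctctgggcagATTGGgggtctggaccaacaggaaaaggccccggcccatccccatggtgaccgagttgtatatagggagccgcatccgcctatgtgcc
TUBA1B: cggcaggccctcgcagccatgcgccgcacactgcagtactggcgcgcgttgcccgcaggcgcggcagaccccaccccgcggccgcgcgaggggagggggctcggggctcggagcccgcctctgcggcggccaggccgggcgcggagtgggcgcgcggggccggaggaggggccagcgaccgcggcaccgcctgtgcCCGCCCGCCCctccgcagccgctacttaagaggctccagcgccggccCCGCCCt

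TUBA1A's window had 2 CCAAT matches, no GGGCGG match and 56.4% G and C. TUBA1B's had no CCAAT match, 3 GGGCGG matches, of which 2 overlap, and 81.2% G and C. The window of TUBA1C, which fell as TUBA1B did, lies before its outermost annotated start. It had 1 CCAAT match, no GGGCGG match and 47.2% G and C. Whether that start is the one in use, and any part of these matches in the changes, was not tested. Of 35116 promoter windows of this length 32% held CCAAT and 42.6% held GGGCGG on either strand. TATAAA, in 10.7% of windows, and CACGTG, in 6.34%, occurred in neither. A match is a run of letters and not a shown binding site.

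Across the 4 libraries, the genes closest in pattern to TUBA1A among 10200 with a mean of at least 10 CPM were CD74, ITGA5 and NECTIN4, at distances of 0.0272, 0.0453 and 0.0702 in centred log2 CPM. Those closest to TUBA4A were LYN, PRICKLE1 and PLAGL2, at 0.0216, 0.0251 and 0.0279. With 4 libraries in 2 lines, likeness of this kind is mostly a likeness of fold change.

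Genes that make, fold, modify and bind tubulin moved in both directions. Over these lists and the other tubulins, 36 of 107 genes tested rose (33.6%) and 43 fell (40.2%), beside 35.3% and 35.5% of all genes. The share called in either direction was 73.8%, near the 70.8% of all genes, so the lists together are called about as often as any gene.

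In the gamma tubulin ring, which nucleates microtubules, 2 of 13 genes of the list with the minor tubulins rose and 7 fell (69.2% called, beside 70.8% of all genes; median log2 fold change −0.22). MZT1, a small subunit of the ring, fell by 1.71 ± 0.09 (69.2 ± 1.57 to 21.2 ± 0.000685 CPM; edgeR adjusted p = 4.78e-11). TUBGCP3, another subunit, fell by 1.21 ± 0.10 (1.64e-08 by the same test). TUBE1, which encodes the epsilon tubulin of centrioles, rose by 0.74 ± 0.10 (5.51e-06), and TUBG2, the minor gamma tubulin, by 0.76 ± 0.11 (1.4e-05).

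New tubulin is handed by prefoldin to the chaperonin TRiC and then assembled into dimers by cofactors. Of 14 TRiC and prefoldin genes 9 fell and 0 rose by edgeR's test (64.3% called, all of them lower, beside 35.5% of all genes lower and 35.3% higher; median −0.57). The count that rose was also 0 at an unadjusted p of 0.05 and with DESeq2. It stayed 0 in 9 of 14 alternatives, and those above 0 included scaling by totals (2) and the limma fits (2 to 3). CCT2, a TRiC subunit, fell by 1.60 ± 0.07 (359 ± 8.74 to 118 ± 5.59 CPM; edgeR adjusted p = 1.25e-11), and PFDN2, a prefoldin subunit, by 1.09 ± 0.09 (1.03e-08). TRiC also folds actin and other proteins. Of 7 folding cofactors 4 rose and 2 fell (85.7% called, beside 70.8% of all genes; median 0.22). TBCE and TBCD, which act on the alpha and the beta subunit at dimer assembly, rose by 1.19 ± 0.09 and 0.32 ± 0.08 (edgeR adjusted p = 9.56e-09 and 0.0013). TBCA, which holds beta tubulin before assembly, fell by 0.76 ± 0.08, and ARL2, a GTPase of the assembly complex, by 0.69 ± 0.10 (4.23e-07 and 8.73e-06).

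Cells also lower tubulin mRNA when free tubulin rises: TTC5 binds the first residues of nascent tubulin and, through SCAPER, brings in the CCR4-NOT deadenylase. Of 8 genes of this route 2 rose and 3 fell (62.5% called, below the 70.8% of all genes; median −0.02). TTC5 itself had a log2 fold change of −0.07 (edgeR adjusted p = 0.534); it lies outside the naming rule and was chosen after its value was seen. SCAPER rose by 0.33 ± 0.10 (edgeR adjusted p = 0.00883) and CNOT2 by 0.51 ± 0.08 (2.42e-05). SCAPER passed in 12 of 15 alternatives, and its call was lost with DESeq2 (adjusted p = 0.0752). Its log2 fold change was 0.29 without Cal51 replicate 1 and 0.22 without Cal51R replicate 2. CNOT11, which links SCAPER to the deadenylase, fell by 0.52 ± 0.08 (edgeR adjusted p = 1.78e-05) and CNOT7, a deadenylase subunit, by 0.28 ± 0.07 (0.00256). CNOT7 passed in 11 of 15 alternatives, with log2 fold changes of −0.31 to −0.02. Its mean TPM was 120.4 in Cal51 and 119.1 in Cal51R.

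Of 17 enzymes that modify tubulin tails or lysines 8 rose and 5 fell (76.5% called, beside 70.8% of all genes; median 0.15). TTLL7, which adds glutamates to the beta tail, rose by 2.50 ± 0.25 (1.00 ± 0.183 to 5.74 ± 0.614 CPM; edgeR adjusted p = 1.6e-07). VASH1, which removes the terminal tyrosine of alpha tubulin, rose by 1.02 ± 0.12 (1.03e-06). TTLL4, an enzyme that starts glutamate chains, fell by 0.90 ± 0.08 (7.47e-08), and TTLL12, of the same family, by 0.86 ± 0.08 (3.36e-08).

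Proteins that bind along microtubules showed the widest spread: 9 of 18 rose and 6 fell (83.3% called, beside 70.8% of all genes; median 0.32). EML1, a microtubule-binding protein needed in neural progenitors, rose by 2.64 ± 0.08 (26.0 ± 0.160 to 162 ± 1.22 CPM; edgeR adjusted p = 6.93e-14). MAP1A, a neuronal microtubule-associated protein, rose by 2.05 ± 0.09 (7.91e-12). MAP7D2 and MAP7D1, relatives of the kinesin-1 recruiter MAP7, fell by 4.13 ± 0.20 and 0.75 ± 0.09 (2.24e-11 and 8.55e-07). In the same list MAP7 itself rose by 2.17 ± 0.17 and MAP7D3 fell by 0.40 ± 0.10 (edgeR adjusted p = 1.21e-08 and 0.00308). Both lie outside the naming rule and were chosen after their values were seen. MAP2, a dendrite protein, was counted at 38 and 24 reads in Cal51 but 0 in both Cal51R libraries, which is at least 10.9-fold lower when Cal51R is set to 3 counts per library. The list median is the same with MAP2 at that bound.

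Of 13 plus-end proteins and polymerases 7 rose and 3 fell (76.9% called, beside 70.8% of all genes; median 0.20). CLIP2, a linker protein, rose by 1.31 ± 0.10 (edgeR adjusted p = 6.74e-09) and APC, which binds growing ends besides its part in Wnt signalling, by 0.85 ± 0.10 (1.58e-06). MAPRE1, which encodes the end-binding protein EB1, fell by 0.57 ± 0.07 (2.59e-06) and SLAIN1 by 0.57 ± 0.11 (0.00016). Of 12 destabilisers and severing enzymes 1 rose and 7 fell (66.7% called, beside 70.8% of all genes; median −0.36). KATNAL2 and KATNAL1, katanin-like proteins, fell by 2.12 ± 0.22 and 0.88 ± 0.10 (edgeR adjusted p = 2.84e-07 and 7.81e-07). SPAST, the severing enzyme spastin, rose by 0.21 ± 0.09 (0.0464), a call lost in 7 of 15 alternatives. These were leaving out Cal51 replicate 1 (adjusted p = 0.149), Cal51 replicate 2 (0.344) or Cal51R replicate 2 (0.0975), DESeq2 (0.211), RLE factors (0.0561) and no filter (0.0784) with edgeR, and edgeR with a replicate block (0.133).

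**Figure D4:**
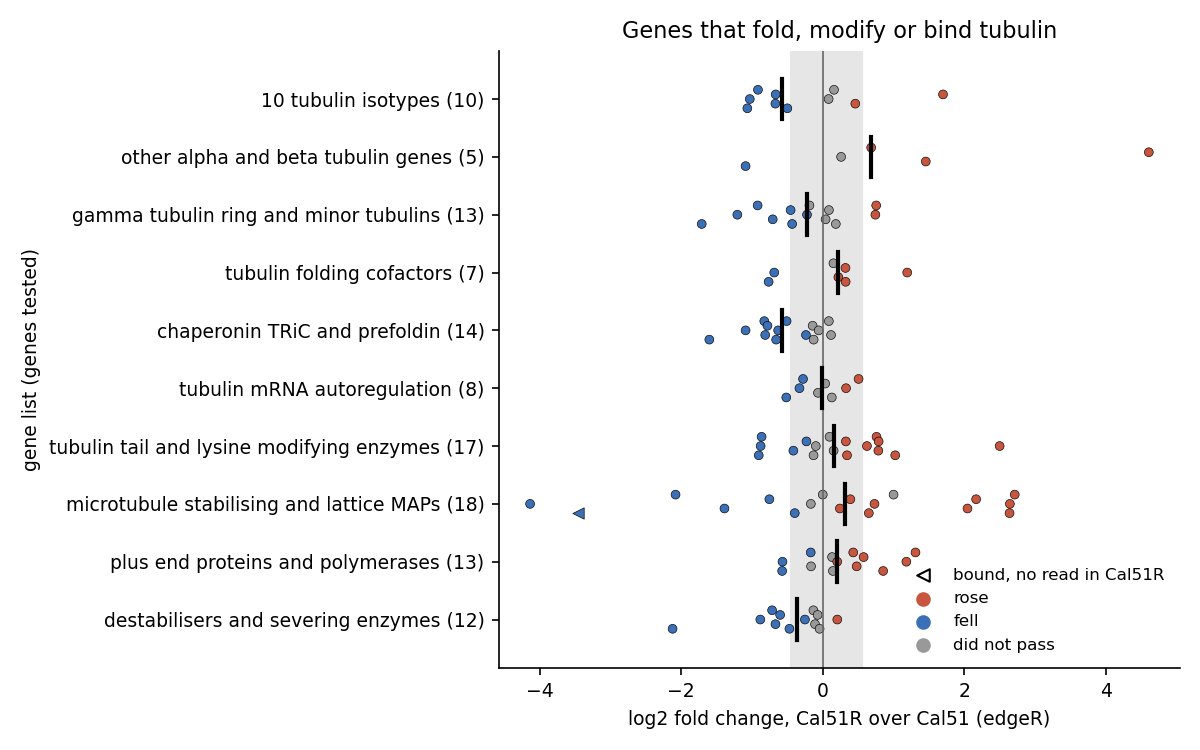
The log2 fold change (edgeR) of each tested gene of the tubulin isotypes and of the related lists, with list medians as black bars and the interquartile range of all genes as a grey band. TRiC and prefoldin hold no gene that rose, the lattice-binding list spreads widest, and MAP2 is drawn as an arrowhead at its bound.

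**Figure D5:**
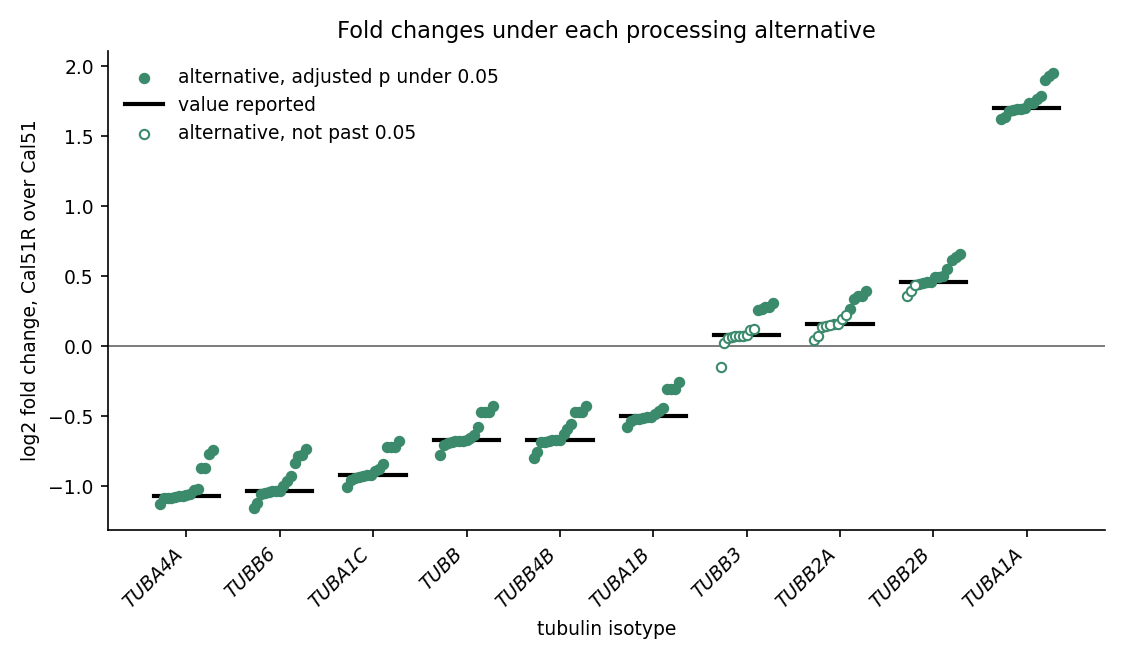
The log2 fold change of each isotype as reported (black bar) and under each processing alternative (circles, filled where the adjusted p is under 0.05). TUBA1A stays between 1.63 and 1.95 and TUBB6 between −1.15 and −0.73, while TUBB3 runs from −0.14 to 0.31.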

How the data were processed

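One deposited table gave, per the file headers, a read count, an FPKM and a TPM for each gene and library. The deposited read counts have fractions and are thus expected counts, which were rounded here. The authors' FPKM served only in alternatives. The authors' TPM served for levels, pools and shares, and their means were not used. RSEM 1.2.8, Bowtie2 2.2.5, HISAT2 2.1.0, DESeq and build hg38 are named, with no role for each, per the submitters' processing notes. Annotation and strand: not given in the sources used here.

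Counts were tested with edgeR 4.0.16 in R 4.3.3 (TMM, filterByExpr with a minimum count of 10, quasi-likelihood test, Benjamini-Hochberg over 13674 genes; 3541 were not tested). SE is the log2 fold change over the root of F. A gene rose or fell where its adjusted p was under 0.05. DESeq2 1.42.0 and limma 3.58.1 gave alternatives. The procedure was tested on simulated counts.

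All 10 isotypes are named, and, from each related list, up to 2 genes higher and up to 2 lower with the smallest p, with the other tubulins. The nearest tested neighbours and 3 genes of most similar pattern were taken by distance. Members and lists were chosen with earlier results of these data known. Genes of these lists with no row in the table are not analysed here. A comparison of protein sequences was planned, and coding sequences were compared in its place. Windows, beta tubulin tails and identities came from GENCODE 29 transcripts and gene positions from RefSeq. Detection limits cover counting error only, since molecular identifiers are not given. The tail sequences of the alpha isotypes are not reported here.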

Additional observations from a re-analysis of the deposited data

How the results depend on the processing

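TUBA1A (log2 fold change 1.63 to 1.95), TUBA1B (−0.57 to −0.26), TUBA1C (−1.01 to −0.67), TUBA4A (−1.13 to −0.74), TUBB (−0.78 to −0.43), TUBB4B (−0.79 to −0.42) and TUBB6 (−1.15 to −0.73) kept direction and call in every alternative run on single genes. The number of isotypes called higher, 2 as reported, was 4 with library totals and in all 3 limma fits (FPKM with 1 or 0.1 added, TPM with 1 added), 1 with DESeq2, 0 with near-identical copies summed, where TUBA1A and TUBB2B have no row of their own, and 1 to 4 when a library was left out. TUBB2B had adjusted p from 0.000393 to 0.189. TUBB2A (adjusted p 0.00082 to 0.715) passed in 6 of 14 alternatives. TUBB3 passed with totals (0.0271), in the limma fits (0.00838 to 0.0334) and without Cal51R replicate 2 (0.28, adjusted p 0.00611), and turned to −0.14 without Cal51R replicate 1. The cause of these differences was not tested. The difference in the share of TUBB (Cal51R minus Cal51, percentage points) ran from −1.55 without Cal51 replicate 2 to 0.0547 without Cal51 replicate 1, and was −2.06 in the pool of all beta genes. That of TUBB4B ran from −0.839 without Cal51 replicate 1 to 0.323 without Cal51 replicate 2. Of all genes 4855 were lower as reported and 3216, 3201 and 3038 in the limma fits. The log2 ratio of the alpha pool, −0.33, was −0.53 with TPM divided by TMM factors, −0.58 in CPM and −0.35 to −0.31 when a library was left out. That of the beta pool, −0.41, was −0.61, −0.66 and −0.46 to −0.35.

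Counts of calls in related lists that moved over 1.5 times were gamma ring higher (2; 2 to 5), TRiC and prefoldin higher (0; 0 to 3), autoregulation higher (2; 1 to 4) and lower (3; 1 to 3), modifying enzymes lower (5; 3 to 5), lattice proteins lower (6; 2 to 7), destabilisers higher (1; 0 to 1) and other tubulins lower (1; 0 to 1). Library numbers are not stated to pair the lines, and the deviations of same-numbered libraries correlated at −0.156. With a replicate block 2 isotypes were higher and 6 lower, and over all genes 4458 and 4447. A crossed pairing, chosen after seeing the data, gave 3 and 6, and 5321 and 5336 over all genes. TUBB2B, TUBB8 and TUBA8 had at most 140 reads in any library, which limits their precision.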
